A study of Mus musculus with 7 samples.

Results

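The 37 genes described here carry out autophagy, the pathway by which a cell encloses part of its cytoplasm in a membrane and delivers it to the lysosome for breakdown. They are listed by function. The rule that defines them uses no measured value, but the members and lists were chosen with earlier results of these data known. They make up 9 roles, beginning with initiation, the class III phosphatidylinositol 3-kinase complex and growth of the phagophore (the cup-shaped membrane that becomes the autophagosome). The other roles are conjugation of the ATG8 proteins, the ATG8 proteins themselves, cargo receptors, mitophagy receptors, transcription factors and the lysosome. All 37 had at least 1 probe on the array, and 36 passed the filter on dim probes, out of 22344 features tested in the series, 13697 of them named genes. Atg4a, which encodes a protease of ATG8 proteins, was left out because its single probe was well above background in none of the 7 hearts.

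The data are 1-colour Agilent arrays of total RNA from the heart apex of 7 C57BL/6 males, 1 array per heart, with 4 control and 3 knockout (KO) hearts. All 7 animals were homozygous for a floxed p38 MAPKα gene (Mapk14, a stress-activated kinase) with loxP sites around exons 2 and 3, and only the KO animals also carried 1 copy of α-MHC mercremer, a tamoxifen-activated Cre recombinase expressed from the cardiomyocyte α-MHC promoter. Both groups were given 500 µg hydroxytamoxifen daily for 10 days, beginning at 6 weeks of age, and both received angiotensin II, a pressor hormone, delivered for 48 hours by implanted osmotic minipumps (1.5 mg/kg daily) before the hearts were taken at 3 months. The comparison asks how deletion of p38α in cardiomyocytes alters gene expression in the angiotensin-treated heart. The effects of the deletion and of Cre itself cannot be told apart, because no control carried Cre, and neither an untreated heart nor one without hydroxytamoxifen was analysed here.

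Between 46.0% and 49.7% of 55681 probes were well above background on each array, and all 12 cardiomyocyte markers examined, Myh6 and Tnnt2 among them, were well above it on all 7. Mapk14 did not pass the test, with a log2 level of 3.74 ± 0.03 (SD, n = 3) in KO hearts against 3.51 ± 0.11 (SD, n = 4) in the controls (limma adjusted p = 0.202). Across the features tested, which are not independent replicates, control 2 correlated more closely with KO heart 3 (r = 0.988) than with controls 3 and 4 (0.976 and 0.977). The position of the Mapk14 probe relative to exons 2 and 3 is not given in the sources used here, so it does not check the deletion. Values below are log2 signals relative to the 75th percentile of the same array, so that 0 is the level of that percentile, and each difference is the KO mean minus the control mean, given ± the limma standard error. A gene is said to fall or rise only where its Benjamini-Hochberg adjusted p over all 22344 features was under 0.05. Levels of different genes are not compared, because probes differ in brightness.

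As background, the ULK1 kinase complex starts autophagosome formation when nutrients or energy are short and is held back by the kinase mTORC1. A lipid kinase complex around PIK3C3 and BECN1 then marks the membrane, ATG2 and ATG9 supply it with lipid, and a conjugation machinery attaches LC3 and GABARAP proteins to it, which in turn capture cargo through receptors. In heart muscle the pathway is best known for removing damaged mitochondria (mitophagy) and for releasing nutrients during fasting and stress. TFEB and TFE3 are related transcription factors that switch on lysosomal and autophagy genes through the CLEAR element, whose core is the E-box letters CACGTG.

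The E-box is shown first because it is the core of the element through which both measured transcription factors of the set act on lysosomal and autophagy genes. Promoter windows from 250 bases before to 50 after the start site (RefSeq, GRCm38.p6) were found for 29 of the 37 genes. The others are Atg12, Atg16l1, Becn1, Bnip3l, Ctsb, Map1lc3a, Pik3c3 and Rb1cc1. CACGTG, which reads the same on both strands, stood in the windows of 8 of these 29 genes: Atg3, Atg5, Atg7, Atg14, Bnip3, Ctsd, Ctsl and Lamp1. Among all 27025 genes with a window it stood in 8.09%, or 7.15% of 32851 windows. In the following sequences the E-box is in capitals, the rest in lower case, and each is written 5′ to 3′ on the strand of its gene.
Atg14, chr14:47568418-47568447, minus strand: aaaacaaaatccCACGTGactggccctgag
Bnip3, chr7:138909597-138909626, minus strand: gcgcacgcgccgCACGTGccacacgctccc
Atg3, chr16:45158746-45158775, plus strand: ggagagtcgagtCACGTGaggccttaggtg
Ctsd, chr7:142387908-142387937, minus strand: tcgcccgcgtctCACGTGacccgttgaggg
Lamp1, chr8:13159088-13159160, plus strand: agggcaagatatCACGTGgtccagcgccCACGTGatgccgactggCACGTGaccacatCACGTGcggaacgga
Atg14 and Bnip3 are shown because they were the members with an E-box that fell in KO hearts, and Atg3, Ctsd and Lamp1 because they hold more than 1 E-box in the window and did not pass the test. Lamp1 had 4, all within the 73 bases printed. The longer CLEAR palindrome, searched as the E-box with its preferred pair of flanking bases on each side, stood in none of the 29 genes and in 0.37% of all genes. Searched on both strands, the FoxO letters GTAAACA stood in none of the 29 (4.05% of all genes), and neither did the letters TCAAGGTCA bound by ERR nuclear receptors (0.466%). A match of letters is a description of the window and not evidence of binding.

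Of the 36 measured members 9 fell and 1 rose in KO hearts, and 26 did not pass. The 9 that fell were Ulk1, Atg14, Atg2a, Wipi1, Map1lc3a, Optn, Bnip3, Bnip3l and Fundc1, and the 1 that rose was Tfe3. As a share, 25.0% of measured members fell, against 15.0% of all features tested, and 2.78% rose, against 10.2%. The median difference over the measured members was -0.24, against -0.06 over all features, and 29 of the 36 had a negative difference. In 14 members every KO heart lay below every control heart, and in 2 every KO heart lay above. Those 16 are 44.4% of the measured members; among all features the share was 39.0%, made up of 21.4% of all features that lay lower in KO and 17.6% that lay higher.

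**Figure D1:**
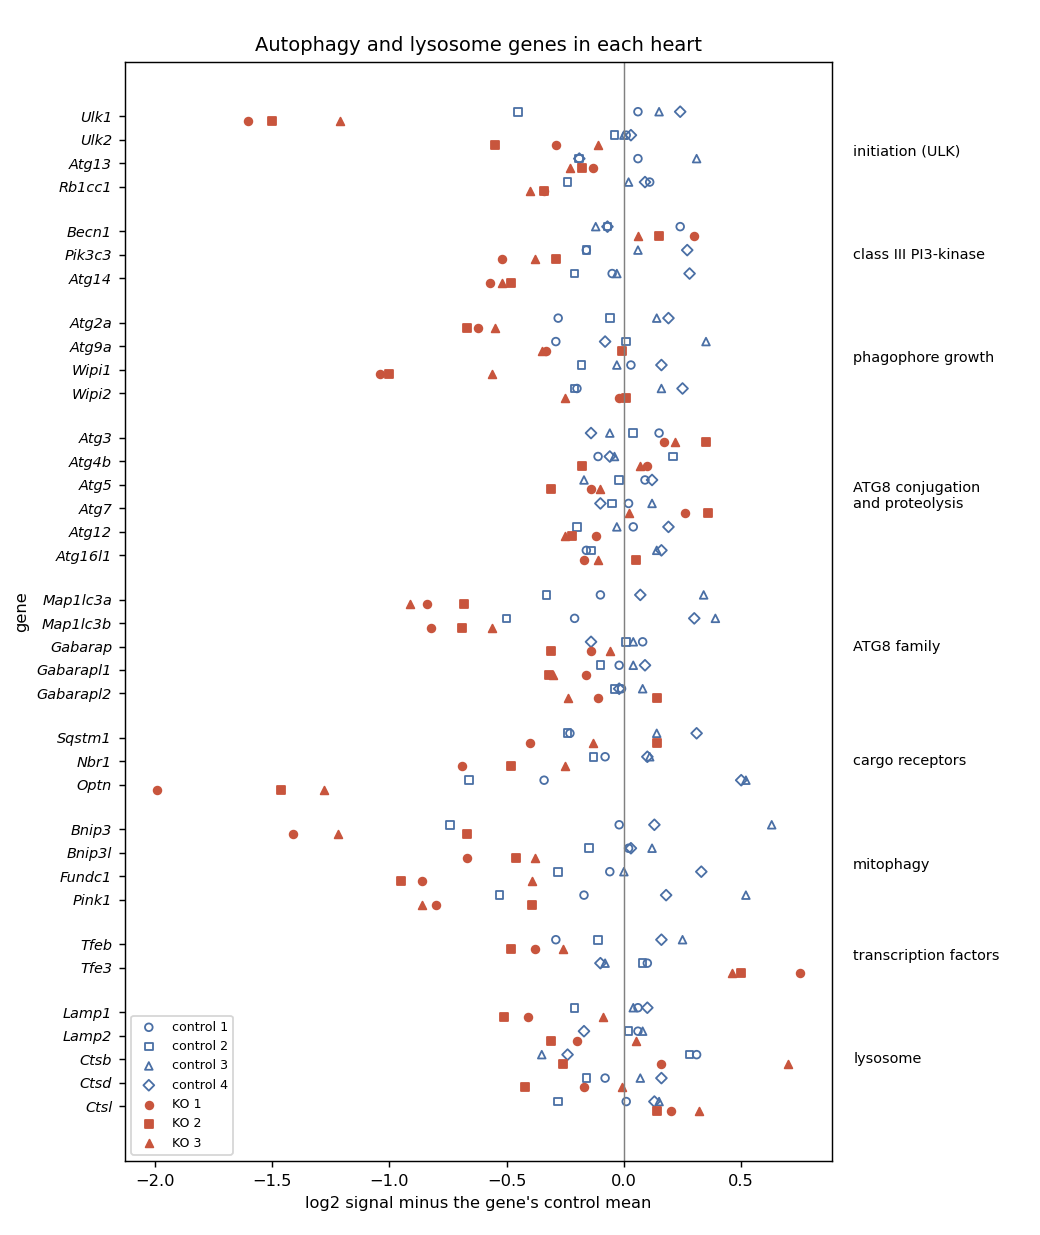
Log2 signal of each of the 36 measured genes in each heart, minus the mean of the 4 controls for that gene, with genes grouped by role. Open blue symbols are the controls and filled red symbols the KO hearts. Ulk1 and Optn have KO values far to the left of all controls, Tfe3 is the gene with KO values clearly to the right, and for most conjugation and lysosome genes the groups overlap.

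The number of calls depended on single hearts. Without KO replicate 1 none of the members passed, whereas 10 had an unadjusted limma p under 0.05, a count given without its share over all features. Without KO replicate 2 only Ulk1 passed, and without KO replicate 3 the count of falls was 8. Leaving out control 1, 2, 3 or 4 gave 5, 12, 4 and 3 falls. Calls over all 22344 features moved as well, from 5640 to 69, 1138 and 5751 without KO replicate 1, 2 or 3. Without control 1, 2, 3 or 4 they were 3266, 6970, 2699 and 2217. Ulk1 was the most stable and lost its call only without KO replicate 1 (adjusted p = 0.0648), and Wipi1 and Optn lost theirs without KO replicate 1 or KO replicate 2. Map1lc3a lost it without either of these or control replicate 4, Atg2a and Tfe3 without either of these or control replicate 3 or 4, and Bnip3l and Fundc1 without any of these or control replicate 1. Atg14 and Bnip3 kept their call only without control replicate 2. In each of these fits all 10 genes kept their direction. With arrays centred on their median instead of the 75th percentile, Atg14, Atg2a, Bnip3l and Fundc1 no longer passed, and without the filter on dim probes only Ulk1 and Wipi1 did.

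The 7 arrays lay on 1 slide, with control 1, control 2 and KO 1 in its first row and the other 4 arrays in its second. Fitted with the row as a block, 13 members fell and 1 rose, the additional falls being Pik3c3, Map1lc3b, Nbr1 and Pink1. Calls increased over all 22344 features too, with 4817 falls and 3585 rises, against 3356 and 2284 without the block. All 10 called genes had the same direction within the first row, where 1 KO heart was set against 2 controls, and within the second. Ulk1 differed by -1.40 in the first row and -1.55 in the second, Optn by -1.49 and -1.88, and Tfe3 by 0.66 and 0.57.

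Among the 4 genes of the initiation complex, Ulk1 fell and the other 3 did not pass. Ulk1, which encodes the kinase that starts autophagy, read 5.07, 4.56, 5.16 and 5.25 in controls 1 to 4 and 3.41, 3.51 and 3.80 in KO hearts 1 to 3. Every KO heart lay below every control, with a gap of 0.76 between the lowest control and the highest KO heart. The difference was -1.44 ± 0.20 (SE, adjusted p = 0.0118), a 2.71-fold lower signal in KO. Ulk2, its close relative, read 1.52 to 1.59 in controls and 1.27, 1.01 and 1.45 in KO hearts. Its difference of -0.32 ± 0.14 did not pass (adjusted p = 0.121), although its groups did not overlap either. The dimmer Ulk2 probe was at -0.53 and did not pass. Rb1cc1, which encodes the scaffold FIP200, was at -0.36 ± 0.13 (adjusted p = 0.0831), and its dimmer probe at 0.05. The regulatory subunit gene Atg13 overlapped between groups, at -0.18 ± 0.16 (adjusted p = 0.421).

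In the lipid kinase complex, the targeting subunit gene Atg14 fell while the core genes did not pass. Atg14, which directs the complex to sites of autophagosome formation, read 0.30, 0.14, 0.32 and 0.63 in controls and -0.22, -0.13 and -0.17 in KO hearts. The 3 KO hearts lay close together and all below the controls, with a gap of 0.27. Its difference was -0.52 ± 0.15 (SE, adjusted p = 0.0378), or 1.43-fold lower. Pik3c3, the catalytic subunit, was at -0.40 ± 0.15 (adjusted p = 0.0858) with no overlap between groups, and both of its probes were negative. Becn1, the scaffold subunit, had KO values of 1.31, 1.16 and 1.07 beside control values of 0.89 to 1.25, so that the groups overlapped, and a difference of 0.17 ± 0.14 (adjusted p = 0.38).

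Of the 4 genes of phagophore growth, Wipi1 and Atg2a fell, and their partners Wipi2 and Atg9a did not pass. Wipi1, which binds the lipid made by the PIK3C3 complex, read 3.48, 3.27, 3.42 and 3.61 in controls and 2.41, 2.45 and 2.89 in KO hearts. The groups did not overlap, and KO heart 3 was the one nearest to the controls. The difference was -0.86 ± 0.16 (SE, adjusted p = 0.0153), a 1.82-fold lower signal, and its dimmer probe gave -1.0, which also passed. Atg2a, which encodes a lipid transfer protein, read 0.63, 0.85, 1.05 and 1.1 in controls and 0.29, 0.24 and 0.36 in KO hearts, a difference of -0.61 ± 0.15 (adjusted p = 0.0264). All 3 KO hearts were again below the lowest control. Wipi2 was at -0.09 ± 0.17 (adjusted p = 0.706), with KO hearts 1 and 2, at 0.58 and 0.61, inside the control range of 0.39 to 0.85 and KO heart 3, at 0.35, just below it. Atg9a, which encodes the scramblase of the pathway, was at -0.22 ± 0.18 (adjusted p = 0.373).

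None of the 6 measured members of the conjugation machinery passed, and their differences centred near 0, with a median of -0.04. At an unadjusted limma p under 0.05 the count was 0 as well. These 6 are the E1-like enzyme Atg7, the E2-like enzyme Atg3, the modifier Atg12 with its partner Atg5, the complex subunit Atg16l1 and the protease Atg4b. Other genes of this machinery or related to it stood on a separate list. There Atg10 (-1.42), Atg4d (-0.79) and Atg16l2 (-0.4) fell, and Atg4c (0.19) did not pass. Atg5 had a 95% confidence interval of -0.49 to 0.12 around its difference of -0.19, Atg12 one of -0.51 to 0.12 and Atg16l1 one of -0.41 to 0.26. For Atg4b the interval was -0.32 to 0.33. The dimmer Atg12 probe was at 0.03. Atg3 and Atg7 had positive differences of 0.25 ± 0.13 and 0.21 ± 0.14. In Atg3 the KO hearts, at 1.67, 1.85 and 1.72, all lay above the controls at 1.36 to 1.65, but by only 0.02 at the nearest. A fall as large as that of Ulk1 lies outside the interval of each of these 6 genes. The smallest falls among the members, -0.51 for Bnip3l and -0.52 for Atg14, lie close to the lower limits of Atg12 and Atg5.

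**Figure D2:**
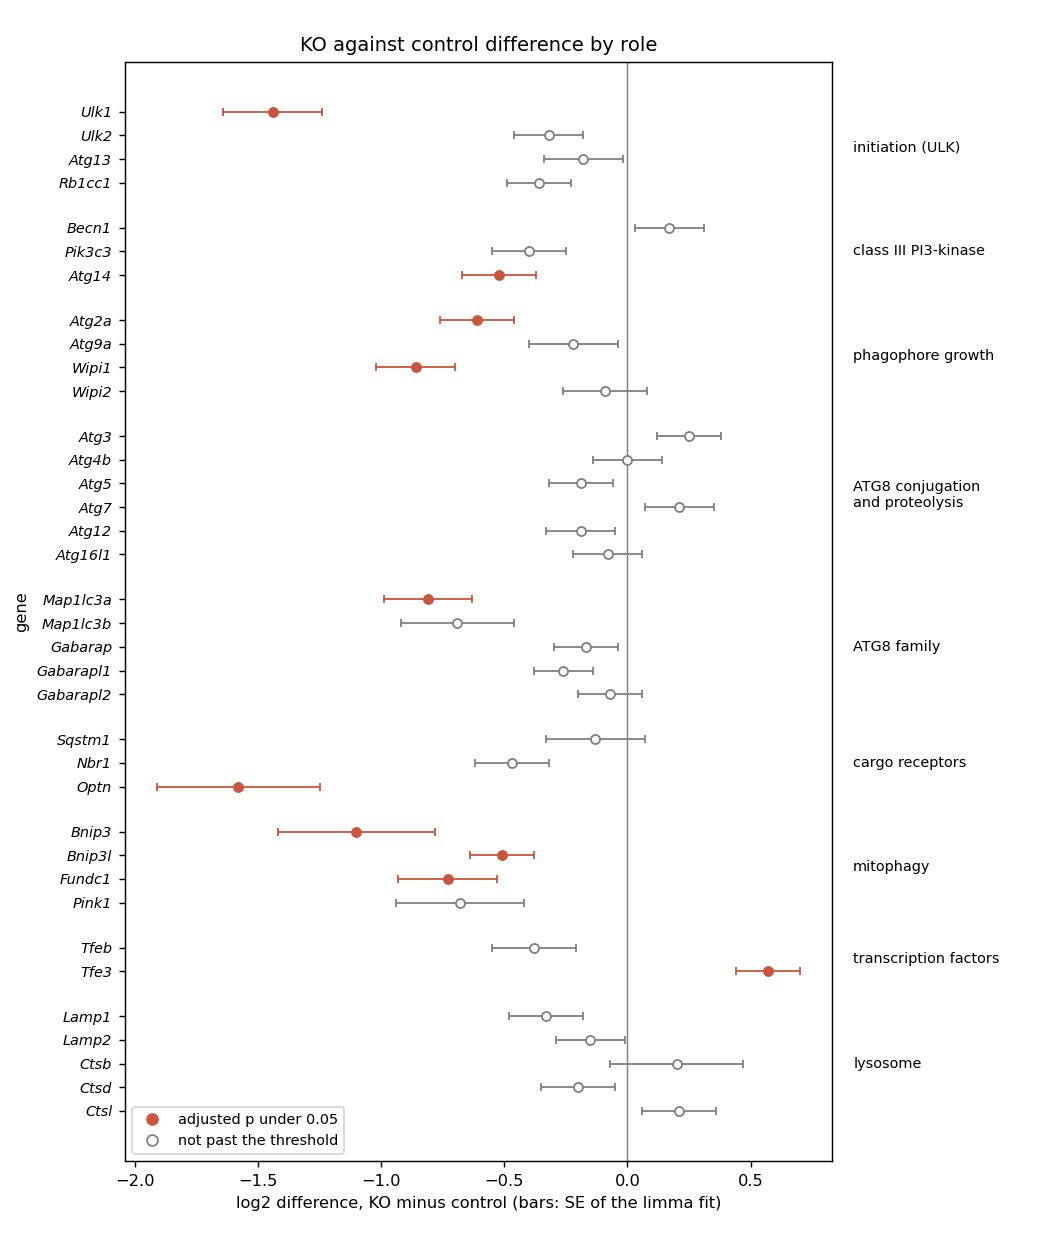
Log2 difference, KO minus control, of the 36 measured genes by role, with bars for the standard error of the limma fit. Filled red points passed an adjusted p of 0.05 and open grey points did not. The 9 falls are spread over 6 roles, with 3 among the 4 mitophagy genes, and there are none among the conjugation and lysosome genes.

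All 5 genes of the ATG8 family had negative differences, and 1 of them, Map1lc3a, fell. These genes encode the small proteins LC3 and GABARAP, which are coupled to the autophagosome membrane. Map1lc3a read 5.49, 5.26, 5.93 and 5.66 in controls and 4.75, 4.91 and 4.68 in KO hearts, a difference of -0.81 ± 0.18 (SE, adjusted p = 0.0203), or 1.75-fold lower. All KO hearts lay below the lowest control. Map1lc3b, the other LC3 gene measured, read 4.85, 4.56, 5.45 and 5.36 in controls and 4.24, 4.37 and 4.50 in KO hearts. Its difference of -0.69 ± 0.23 did not pass (adjusted p = 0.0631), and its groups were separated by 0.06. The GABARAP genes had smaller differences, at -0.26 ± 0.12 for Gabarapl1, -0.17 ± 0.13 for Gabarap and -0.07 ± 0.13 for Gabarapl2. The dimmer Gabarap probe was at -0.35 and did not pass.

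Among the cargo receptor genes, Optn fell, with the largest difference in the whole set. Optn encodes optineurin, which links ubiquitin-tagged mitochondria and bacteria to LC3. It read 0.70, 0.38, 1.56 and 1.54 in controls and -0.95, -0.42 and -0.24 in KO hearts. Controls 3 and 4 were about 1 unit above controls 1 and 2, and all KO hearts lay below the lowest control. The difference was -1.58 ± 0.33 (SE, adjusted p = 0.0183), a 2.99-fold lower signal. Nbr1, a receptor for ubiquitin-tagged aggregates and peroxisomes, narrowly missed the threshold at -0.47 ± 0.15 (adjusted p = 0.0523), with no overlap between groups. Sqstm1, which encodes the receptor p62, overlapped widely, with 3.29, 3.83 and 3.56 in KO hearts and 3.45 to 4.0 in controls (difference -0.13 ± 0.20, adjusted p = 0.655).

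Of the 4 mitophagy genes 3 fell and none rose, with a median difference of -0.71. Bnip3, which encodes a receptor on the outer mitochondrial membrane, read 6.68, 5.96, 7.33 and 6.83 in controls and 5.29, 6.03 and 5.48 in KO hearts. Control 2 lay below KO heart 2, so the groups overlapped. The difference was -1.1 ± 0.32 (SE, adjusted p = 0.0427), or 2.15-fold lower, and all 3 Bnip3 probes gave between -1.1 and -1.08. Its relative Bnip3l (also called Nix) read 4.12, 3.95, 4.22 and 4.13 in controls and 3.43, 3.64 and 3.72 in KO hearts, without overlap. Bnip3l differed by -0.51 ± 0.13 (adjusted p = 0.0313), and its 4 probes ranged from -0.51 to -0.42.

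Fundc1, which encodes a further receptor on the outer mitochondrial membrane, read 2.21, 1.99, 2.27 and 2.60 in controls and 1.41, 1.32 and 1.88 in KO hearts. KO heart 3 came within 0.11 of the lowest control, and the difference was -0.73 ± 0.20 (adjusted p = 0.0337). Pink1, the gene of a kinase that marks damaged mitochondria for removal, read 6.00, 5.64, 6.69 and 6.35 in controls and 5.37, 5.78 and 5.31 in KO hearts. KO heart 2 lay above control 2, and the difference of -0.68 ± 0.26 did not pass (adjusted p = 0.0848).

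The related transcription factor genes Tfeb and Tfe3 had differences of opposite sign. Tfe3 read 2.32, 2.3, 2.14 and 2.12 in controls and 2.97, 2.72 and 2.68 in KO hearts. It was the only member that rose, by 0.57 ± 0.13 (SE, adjusted p = 0.0231), or 1.48-fold, with every KO heart above every control, and its dimmer probe gave 0.41 and did not pass. Tfeb read 0.17, 0.35, 0.71 and 0.62 in controls and 0.08, -0.02 and 0.20 in KO hearts, a difference of -0.38 ± 0.17 that did not pass (adjusted p = 0.121). Of the 8 members with an E-box in the promoter window, Atg14 and Bnip3 fell and the other 6 did not pass.

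None of the 5 lysosomal genes passed, and the count at an unadjusted limma p under 0.05 was 0 too. Lamp1 and Lamp2 encode the main glycoproteins of the lysosomal membrane, and Ctsb, Ctsd and Ctsl encode cathepsin proteases. Lamp1 was at -0.33 ± 0.15, Lamp2 at -0.15 ± 0.14, Ctsd at -0.20 ± 0.15 and Ctsl at 0.21 ± 0.15. The dimmer probes of Lamp2 and Ctsd were at 0.13 and -0.45 and did not pass. Ctsb varied most between hearts of the same group: it read 6.72, 6.69, 6.06 and 6.17 in controls and 6.57, 6.15 and 7.11 in KO hearts. Its difference was 0.20 ± 0.27 (adjusted p = 0.588), or -0.05 without KO replicate 3.

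Closely related genes were set against each other on the same array, where the gap between a pair of log2 signals does not change when a constant is subtracted from the whole array. Of 8 pairs 7 could be formed, the pair of Atg4a and Atg4b being left out. The gap of Ulk1 over Ulk2 was 2.33 ± 0.18 (SD, n = 3) in KO hearts against 3.45 ± 0.28 (SD, n = 4) in the controls, a change of -1.12 with no overlap. The gap of Wipi1 over Wipi2 changed by -0.77 and that of Tfeb over Tfe3 by -0.95, each without overlap. These 3 pairs reached p = 0.0286 in an exact two-sided permutation test, the smallest that 35 splits of 7 hearts allow. Their adjusted p over the 7 pairs was 0.0667, so none passed 0.05. With only 3 pairs at this smallest p none could pass, so the adjusted test cannot decide whether these gaps changed. The gap of Map1lc3a over Map1lc3b changed by -0.12 (exact permutation p = 0.457), that of Bnip3 over Bnip3l by -0.59 (0.143), that of Lamp1 over Lamp2 by -0.18 (0.229) and that of Gabarapl1 over Gabarapl2 by -0.19 (0.0571).

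**Figure D3:**
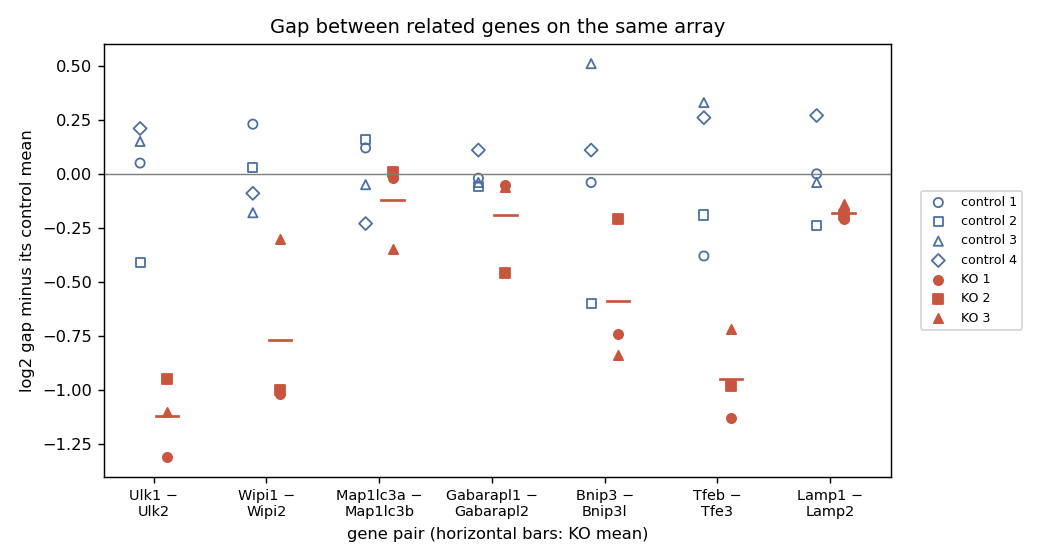
Difference between the log2 signals of both genes of a pair on the same array, minus the control mean of that gap. Open blue symbols are controls, filled red symbols KO hearts and horizontal bars KO means. For Ulk1 and Ulk2, Wipi1 and Wipi2, and Tfeb and Tfe3 all KO hearts lie below all controls, and for the other 4 pairs the groups overlap.

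The remaining genes of the pathway were taken from 6 lists of 133 genes, of which 131 were measured, 19 fell and 7 rose. This is 14.5% lower and 5.34% higher, with a median difference of -0.06, beside 15.0% and 10.2% and a median of -0.06 over all features. Without KO replicate 1 the total of 26 called genes was 1, without KO replicate 2 it was 4, and without control replicate 1, 3 or 4 it was 17, 12 and 9. The list with the largest share of falls was that of other autophagy genes, where 7 of 24 fell and 1 rose. Atg10, the E2-like enzyme that joins ATG12 to ATG5, read 1.33, 0.87, 1.46 and 1.62 in controls and -0.45, -0.24 and 0.38 in KO hearts, a fall of 1.42 ± 0.25 (SE, adjusted p = 0.0138). Trp53inp2, which carries LC3 out of the nucleus, was at -1.36 ± 0.18 (adjusted p = 0.0112) and Wdr45, a relative of the WIPI genes, at -0.97 ± 0.25. Vmp1, an endoplasmic reticulum scramblase gene, was the 1 that rose, by 0.50 ± 0.15.

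Among the 12 other cargo and mitophagy receptor genes 1 fell and 1 rose. Calcoco1, an endoplasmic reticulum receptor gene, was at -1.26 ± 0.29, and Tbk1, the kinase gene that activates optineurin and p62, at 0.47 ± 0.14. Of 25 genes of mTORC1 and nutrient sensing 4 fell and 1 rose (median -0.27). Sesn1, an inhibitor of mTORC1, fell by 1.54 ± 0.32, and the folliculin complex genes Fnip1 and Flcn were at -0.75 and -0.74. The catalytic subunits of AMPK, an energy sensor that activates ULK1, moved in opposite directions, with Prkaa2 at -0.67 ± 0.12 (adjusted p = 0.0147) and Prkaa1 at 0.79 ± 0.17 (adjusted p = 0.0193). Prkaa2 read 3.34 to 3.53 in controls and 2.66, 2.84 and 2.79 in KO hearts, and Prkaa1 1.02 to 1.29 and 2.04, 2.26 and 1.66, without overlap in either.

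Among 35 other lysosomal hydrolases 4 fell and 1 rose (median 0.06). The cathepsin F gene Ctsf was at -1.36 ± 0.30, the acid sphingomyelinase gene Smpd1 at -1.05 ± 0.17 and Gaa, the acid α-glucosidase that breaks down lysosomal glycogen, at -0.82 ± 0.24. Lipa, the lysosomal acid lipase gene, rose with the lowest adjusted p of the list. It read 1.12, 1.01, 0.83 and 0.77 in controls and 2.18, 2.24 and 2.35 in KO hearts, higher by 1.33 ± 0.14 (adjusted p = 0.00727). Of 19 lysosomal membrane genes 2 fell and 2 rose, with Laptm4b at -0.76, Laptm4a at -0.52, Cd63 at 0.78 and Hgsnat at 0.62. Of 16 genes of the vacuolar ATPase, the proton pump that acidifies the lysosome, Atp6v1d fell by 0.80 ± 0.17, Atp6v1h rose by 0.82 ± 0.18 and 14 did not pass.

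**Figure D4:**
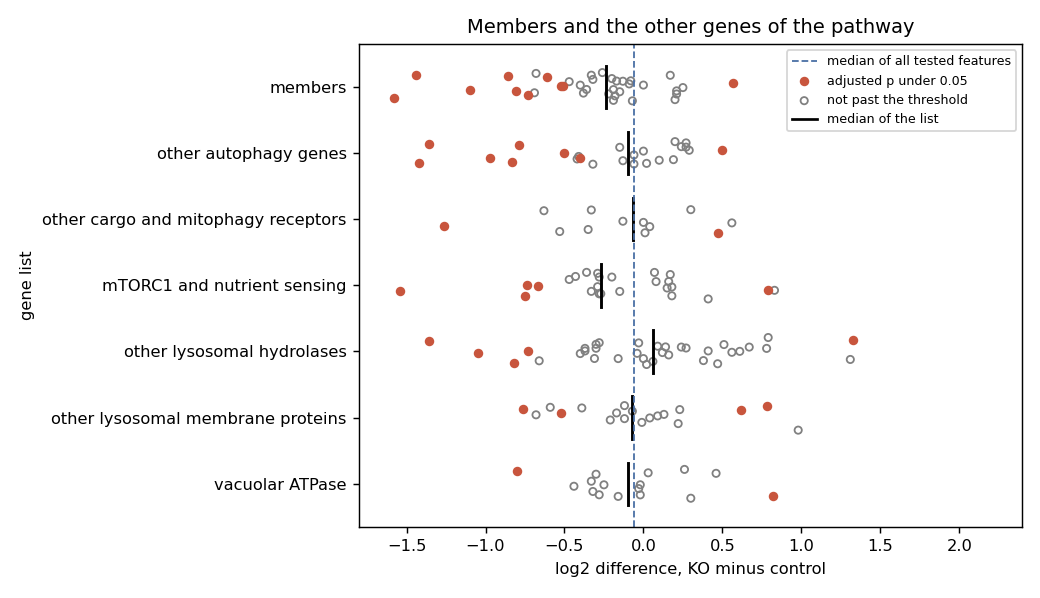
Log2 difference, KO minus control, of the 36 measured members and of the other genes of the pathway in 6 lists, 1 point per gene. Red points passed an adjusted p of 0.05, black bars are list medians, vertical scatter has no meaning, and the dashed line is the median of all features, -0.06. The members and the mTORC1 list have medians of -0.24 and -0.27, and the other lists lie between -0.10 and 0.06.

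In a piece of heart, fewer cells of a type and less RNA per cell cannot be told apart, and markers of several cell types differed between the groups. Of 12 cardiomyocyte markers 6 fell and none rose, with Tnni3 at -1.19 ± 0.20 and Pln at -2.34 ± 0.39. The summed linear signal of the 12, in units of the 75th percentile, ranged from 5680 to 8230 in controls and from 4690 to 5430 in KO hearts, without overlap. The bright probes of Myl3, Actc1 and Myh6 add most to this sum, and none of them passed. The Myh6 probe used was at -0.30, while a dimmer one was at -1.72 and passed. Of 14 monocyte and macrophage markers 4 rose, among them Cd14 by 1.43 and Msr1 by 2.34, while Csf1r and Adgre1 did not pass, at 0.23 and 0.24. Their sum, to which the bright probes of Itgam and Csf1r add most, ranged from 134 to 153 in controls and from 144 to 212 in KO hearts. The Itgam probe used was at -0.56 and did not pass. Dimmer ones were at 1.86, which passed, and at -0.96, which did not. Relative to the control mean, the mean log2 level over the 14 ranged from -0.42 to 0.48 in controls and from 0.63 to 1.20 in KO hearts, without overlap. All cardiomyocyte and all macrophage markers were well above background on at least 1 array.

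Of 12 neutrophil markers 9 were measured. Cxcr2, Mmp8 and Mmp9 were well above background in none of the controls and Fpr1 and Fpr2 in 2 of 4, so these 5 entered the test through the KO hearts, where they were high, and had to differ. Of the other 4, S100a8 rose by 3.33 ± 0.71 and S100a9 by 3.14 ± 0.68, and Csf3r and Camp, at -0.23 and 0.25, did not pass. A dimmer Camp probe was at 0.74 and passed. The summed neutrophil signal, most of it from the bright Csf3r probe, ranged from 114 to 177 in controls and from 102 to 178 in KO hearts, and no array had Ngp well above background. Of 9 fibroblast markers Pdgfra rose by 0.68 and 8 did not pass (sums 351 to 613 in controls and 297 to 694 in KO hearts). Dcn, at -0.71, narrowly missed the threshold, and of the 9 differences 5 were positive and 4 negative. Of 8 endothelial markers Kdr fell by 1.19 on the brighter of its probes (sums 120 to 176 and 102 to 132). Its other probe was at -0.13 and did not pass. Of 7 smooth muscle and pericyte markers Rgs5 fell by 0.83 (sums 66.2 to 119 and 107 to 119). The other 6 did not pass. Of the 7 differences 4 were positive and 3 negative, with a median of 0.18. Of 7 lymphocyte markers 2 were measured and neither passed (sums 2.82 to 3.59 and 2.76 to 3.02), and no array had Cd3g, Cd79a or Cd8a well above background.

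Heart by heart, the mitophagy genes, the cardiomyocyte markers and the endothelial markers stood in similar orders among the controls. Among the KO hearts their orders differed. Control 2 was lowest and control 1 next in each, as also in the ATG8 family (-0.19 and -0.05) and the cargo receptors (-0.34 and -0.22). The mean over the 4 mitophagy genes, relative to the control mean, was -0.06, -0.43, 0.32 and 0.17 in controls 1 to 4 and -0.94, -0.62 and -0.71 in KO hearts 1 to 3. The mean over the cardiomyocyte markers was -0.02, -0.31, 0.22 and 0.11 in controls and -0.97, -0.72 and -0.62 in KO hearts. The mean over the endothelial markers was -0.23, -0.34, 0.22 and 0.36 in controls and -0.49, -0.37 and -0.51 in KO hearts. Control 2 was the lowest control for all of these means, for 8 of the 9 members that fell and for 22 of the 36 measured. KO heart 1 was the lowest KO heart for 6 of the 9 members that fell but for 12 of the 36 measured, with KO heart 2 lowest in 13 and KO heart 3 in 11. Ctsb instead was high in the hearts with high macrophage and fibroblast sums. KO heart 3 had the highest Ctsb value and the highest sums of both marker lists, and controls 1 and 2 exceeded controls 3 and 4 in all 3. By mean log2 macrophage level, however, KO hearts 1 and 2 (0.76 and 0.63) lay above every control. Their Ctsb values, 6.57 and 6.15, lay below those of controls 1 and 2 (6.72 and 6.69). The part of the cell type markers in these differences was not tested.

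**Figure D5:**
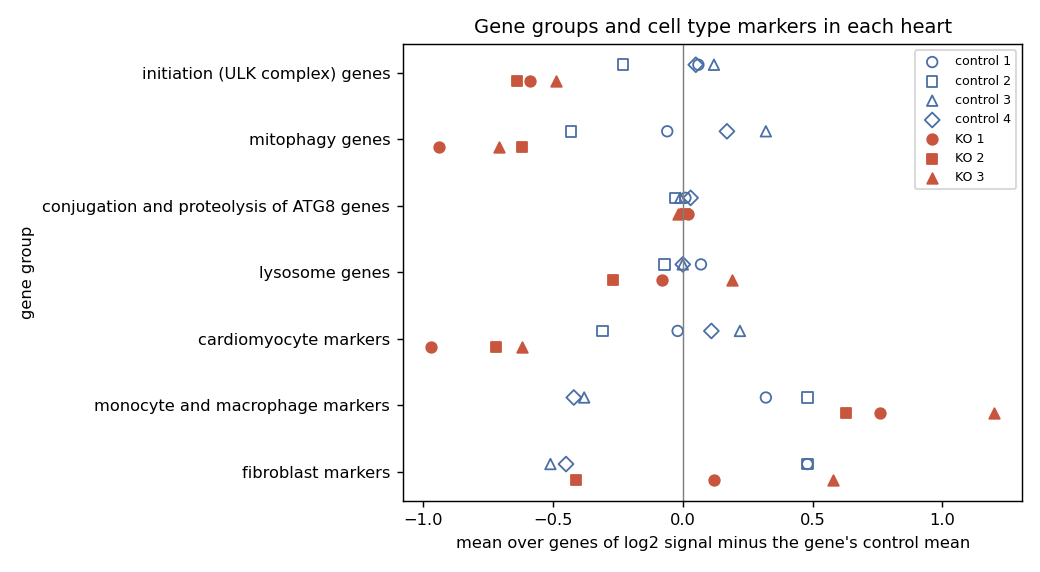
Mean over the genes of a group of log2 signal minus each gene's control mean, for 4 groups of members and 3 marker lists, with 1 symbol per heart. Open blue symbols are controls and filled red symbols KO hearts. The initiation, mitophagy and cardiomyocyte groups separate KO hearts from controls, the conjugation genes lie between -0.03 and 0.03 in all hearts, and the lysosome genes overlap.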

How the data were processed

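Per the file headers, the authors read the arrays with Agilent Feature Extraction 11.0.1.1. The deposited scanner files give the intensity of 62976 spots per array, 3671 of them control spots, and the background-subtracted processed signal was used. Per the labels, 100 ng RNA was labelled per array. The deposited value table holds log2 values centred on each probe's median over the 7 arrays; its scaling between arrays is not given in the sources used here, and it served only as an alternative.

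Processed signals were turned to log2, and scaled by subtracting each array's 75th percentile, control spots left out. Outlier spots were left out and spots of a probe averaged. A probe was kept if 3 or more arrays of either group had it well above background (26576 of 55681). Probes were named through RefSeq accessions (28026 matched 1 symbol, 27655 none). The kept probe with the highest mean stood for a gene. KO and control were compared with limma 3.58.1 in R 4.3.3, adjusted by Benjamini-Hochberg over all 22344 features at 0.05. The test was tried on simulated data. The precision is limited by the number of arrays. The labels name separate hearts, taken as separate animals.

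The members, lists and tests were chosen with earlier results of these data known. All members are named. In other pathway lists up to 3 genes per direction with the largest differences were named. In marker lists it was up to 2 with the lowest p. Prkaa2, Atg4c, Atg4d, Atg16l2, Csf1r, Adgre1, Itgam, the other neutrophil markers, Myh6, Tnnt2, Myl3 and Actc1 were added after their values were seen. The alternatives were normexp (offset 50), quantile and median scaling, other filters, the deposited table, probe means, trend and robust variance, array weights, blocks, each heart left out and a threshold of 0.1. The design text gives 4 hearts per group; a further KO heart was not analysed here.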

Additional observations from a re-analysis of the deposited data

Results flagged for a closer look

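Of 36 genes examined for a control heart far from the other 3, 1 was marked: Becn1 read 1.25 in control 1 and 0.89 to 0.94 in controls 2 to 4, a gap of 0.856 of the whole range. Chance marks about 1 in 20 such groups. Becn1 did not pass the comparison of KO with control.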

How the results depend on the processing

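The 10 called members kept their direction under all alternatives, and the calls did not. The main counts were 5640 features, 9 members lower, 1 member higher and 26 other pathway genes. Without a filter on dim probes they were 1415, 2, 0 and 4; more features were tested there. Array weights gave 11999 features, 16 members lower and 69 other pathway genes, and a threshold of 0.1 gave 8731, 14 and 44. Median centring gave 5 members lower, and the array row as a block 44 other pathway genes; the cause was not tested. Leaving out 1 heart gave 69 to 6970 features, 0 to 12 members lower, 0 to 1 higher and 1 to 32 other pathway genes. No pair of related genes passed 0.05 with normexp, quantile normalization, the authors' table or probe means. In each of these only 3 pairs reached the smallest p of the exact test, so none could pass. In the main setting 3 passed 0.1. With 1 heart left out no pair could pass 0.05 by the exact test, and the pairs were not tested under the remaining alternatives.

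The replicate numbers of the titles did not pair the hearts: deviations from the group means correlated at 0.184, -0.223 and -0.197 for numbers 1, 2 and 3. With the replicate number as a block, control 4 is left without weight. In that fit 9 features, 0 members in either direction and 0 other pathway genes passed. An unadjusted limma p under 0.05 was reached by 11 members, a count given without its share over all features.

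Sign changes occurred in 6 members that did not pass. With median centring Wipi2 was at 0.0026, Atg16l1 at 0.02 and Gabarapl2 at 0.02, with array weights Wipi2 at 0.03, and in the authors' table Gabarapl2 at 0.0015 and Atg4b at -0.0026. Atg4b was at -0.01 with quantile normalization and -0.02 with the replicate block, and from -0.05 to 0.09 with 1 heart left out. In such fits Gabarapl2 lay between -0.18 and 0.01, Sqstm1 between -0.26 and 0.01 and Ctsb between -0.05 and 0.43.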
